A study of Mus musculus with 6 samples.

Results

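Interferon-stimulated genes are the genes that cells switch on when interferon binds its receptor, and here they were read in haematopoietic stem cells of mice that no label describes as infected or stimulated. A list of 57 gene symbols defined the set, and rows of the deposited expression table whose symbol equalled one of them were taken. The match found 55 of the 57 symbols among 52183 genes. The symbols Mb21d1 and Tmem173 had no row of that name; the same genes stood in the table as Cgas and Sting1 and are given apart from the 55.

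The cells were haematopoietic stem cells purified by flow cytometry from the bone marrow of 4-month-old female mice. The labels name 3 libraries as control and another 3 as Thbs1 knockout, Thbs1 being the gene of the secreted matrix glycoprotein thrombospondin 1. The deleted exons, the cells that lost them and the strain are not stated in the labels, nor is it stated that each library is a separate animal, so p-values measure only how far these libraries scatter, which may be technical. The libraries are called control 1 to 3 and knockout 1 to 3 after the replicate numbers of the labels.

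Type I interferons act through the receptor chains Ifnar1 and Ifnar2 and interferon gamma through Ifngr1 and Ifngr2; both receptors signal through JAK kinases to STAT proteins. The type I signal forms a complex of STAT proteins with Irf9, which binds the interferon-stimulated response element (ISRE), while interferon gamma acts through STAT dimers on the gamma-activated sequence (GAS). Stem cells of many tissues are known to hold a part of this programme on without infection, and interferon is known to drive resting haematopoietic stem cells into cycle.

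Matches to both elements are common in the promoters of the set, and 8 stretches are printed to show the forms they take in genes described later. Each is 60 bases, 5′ to 3′ on the strand of the gene, from RefSeq promoter windows of GRCm38.p6, which run from 250 bases before a transcript start to 50 after it; capitals mark the ISRE letters GAAANNGAAA, the same letters read on the opposite strand, and the GAS letters TTCNNNGAA.
Isg15, chr4:156200854-156200913, minus strand: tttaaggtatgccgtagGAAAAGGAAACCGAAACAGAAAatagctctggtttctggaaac
Ifit1, chr19:34640769-34640828, plus strand: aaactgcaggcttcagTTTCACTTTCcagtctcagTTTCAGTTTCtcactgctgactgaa
Oas1a, chr5:120907527-120907586, minus strand: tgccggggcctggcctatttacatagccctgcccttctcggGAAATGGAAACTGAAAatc
Bst2, chr8:71537563-71537622, minus strand: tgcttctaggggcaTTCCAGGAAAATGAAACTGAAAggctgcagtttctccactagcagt
Igtp, chr11:58199491-58199550, plus strand: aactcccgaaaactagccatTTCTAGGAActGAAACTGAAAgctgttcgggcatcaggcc
Irgm2, chr11:58214882-58214941, plus strand: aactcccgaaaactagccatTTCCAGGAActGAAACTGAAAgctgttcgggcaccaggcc
Irf1, chr11:53769899-53769958, plus strand: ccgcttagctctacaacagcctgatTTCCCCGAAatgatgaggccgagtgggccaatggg
Irf2, chr8:46739495-46739554, plus strand: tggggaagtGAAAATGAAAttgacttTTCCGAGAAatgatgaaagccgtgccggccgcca

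Isg15 carried 3 overlapping ISRE matches in a row, Ifit1 carried 2 apart in the reverse orientation, and in Bst2 a GAS match ran into 2 overlapping ISRE matches. Igtp and Irgm2, neighbours on chromosome 11, held the same arrangement of a GAS match just before an ISRE match. Irf1 held a GAS match and no ISRE match. Promoter windows were matched by symbol for 44 member genes. At least 1 ISRE match stood in the windows of 22 of them (50%), against 3.99% of the 27025 genes with a window (3.44% of all 32851 windows), and at least 1 GAS match in 14 (31.8%), against 9.55% of genes (8.30% of windows). Both stood in 8 members (18.2%), against 0.614% of genes. Matches were counted on both strands and may overlap. A match describes letters and is no evidence that a factor binds, and its absence says only that these letters are not in the window.

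The set was mostly present at baseline. Values are FPKM, fragments per kilobase of gene per 1000000 fragments as deposited by the authors, so levels of different genes can be compared per length. With presence taken as at least 1 FPKM in all 3 libraries of a group, 53 of the 55 genes were present in the control group and the same 53 were present in both groups. Mx1, a dynamin-like GTPase that blocks viruses, lay at the threshold with 1.17, 0.67 and 1.07 FPKM in control 1 to 3 and 1.30, 0.74 and 2.16 in knockout 1 to 3. Ifi204, a DNA-binding member of the p200 family, lay at 0.34, 0.19 and 0.23 FPKM in the controls and at 0, 0.03 and 0.22 in the knockouts, from 0 to 31 reads a library. Both were below 1 FPKM in 1 or more libraries of each group. The transcript of Ifi204 is 96.92% identical to Ifi211 over 1363 bases and 95.75% identical to Mndal over 776. Mndal had a mean of 12.96 FPKM, so how reads were shared among these genes is uncertain. At 5 FPKM, 41 genes were present in both groups. The choice of threshold therefore sets the count, and no gene was present in one group and absent in the other at 1 FPKM.

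**Figure D1:**
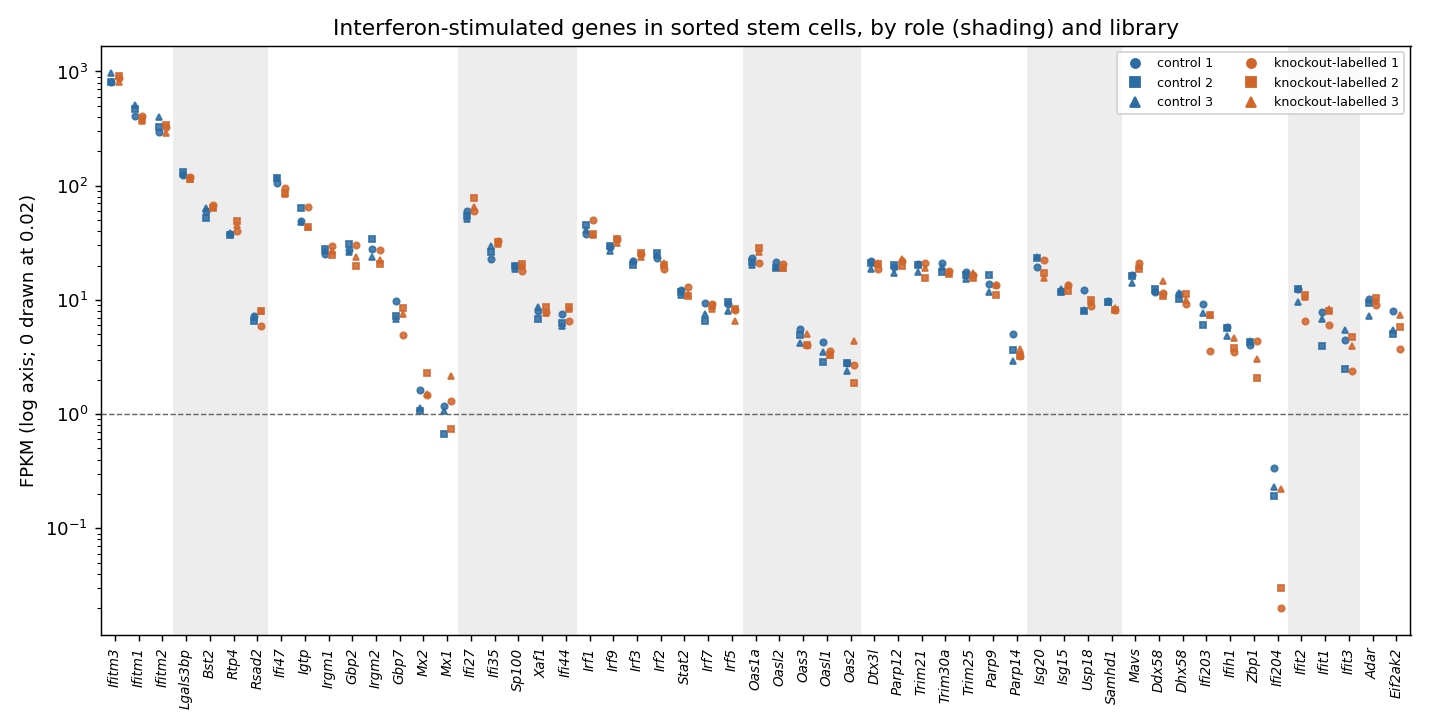
FPKM (log axis) of the 55 interferon-stimulated genes in each library, control in blue and knockout-labelled in orange, with the symbol shape giving the replicate number, genes grouped by role in alternating shading and the dashed line at 1 FPKM. The IFITM genes stand highest, Mx1 straddles the line, Ifi204 lies under it, and the 2 colours lie close together for most genes.

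The levels spanned a wide range. Of the 55 means over the 6 libraries, 1 lay below 1 FPKM, 9 from 1 to 5, 12 from 5 to 10, 25 from 10 to 50, 5 from 50 to 200 and 3 above 200. The median member had 13.4 FPKM, against 8.81 for all 12555 genes tested. The genes above 200 FPKM were the IFITM genes, whose small membrane proteins block the fusion of viruses with cell membranes. Ifitm3 ranked 21 among all tested genes by mean level, Ifitm1 ranked 61 and Ifitm2 ranked 92. These 3 genes made up 58.5 to 64.6% of the summed FPKM of the whole set in each library. The genes from 50 to 200 FPKM were Lgals3bp, Ifi47, Bst2, Ifi27 and Igtp. Some genes often used as reporters of an acute interferon response were lower. Means were 12.5 FPKM for Isg15, 7.14 for Rsad2, 6.83 for Ifit1, 8.32 for Irf7 and 1.52 for Mx2. Mx2, the sister of Mx1, is annotated as a polymorphic pseudogene. Low level was not common to all inducible members: Rtp4, described below as strongly inducible, had a mean of 41.2 FPKM. The mean of Ifi27 was 61.4 FPKM. Among the 44 genes with a promoter window, the median of the mean levels was 15.5 FPKM for those with an ISRE match and 19.6 for those without, with ranges of 3.90 to 864 and 3.47 to 425.

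No member passed the test between the groups. The test was limma on log2(FPKM + 1) over all genes that reached 1 FPKM in 3 or more libraries, two-sided, with Benjamini-Hochberg adjustment over all 12555, and it applied to 54 of the 55 members, all but Ifi204. It called 196 genes of the whole table at an adjusted p below 0.05 (1.56%), 71 higher and 125 lower in the knockout libraries, and 0 members. At an unadjusted p below 0.05 there were 10 members (18.5%), against 16.4% of all genes, with 6 higher and 4 lower. The values of the groups did not overlap for 11 members (20.4%), against 22.8% of all genes, with 6 higher and 5 lower. All of these shares are near those of the table as a whole. The fitted differences, knockout minus control, ran from -0.37 to 0.33 in log2(FPKM + 1), a scale on which changes of low genes come out too small, with a median of -0.02 against 0.01 for all genes. The spread left within groups was a median SD of 0.157 log2 units for the members and 0.138 for all genes.

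**Figure D2:**
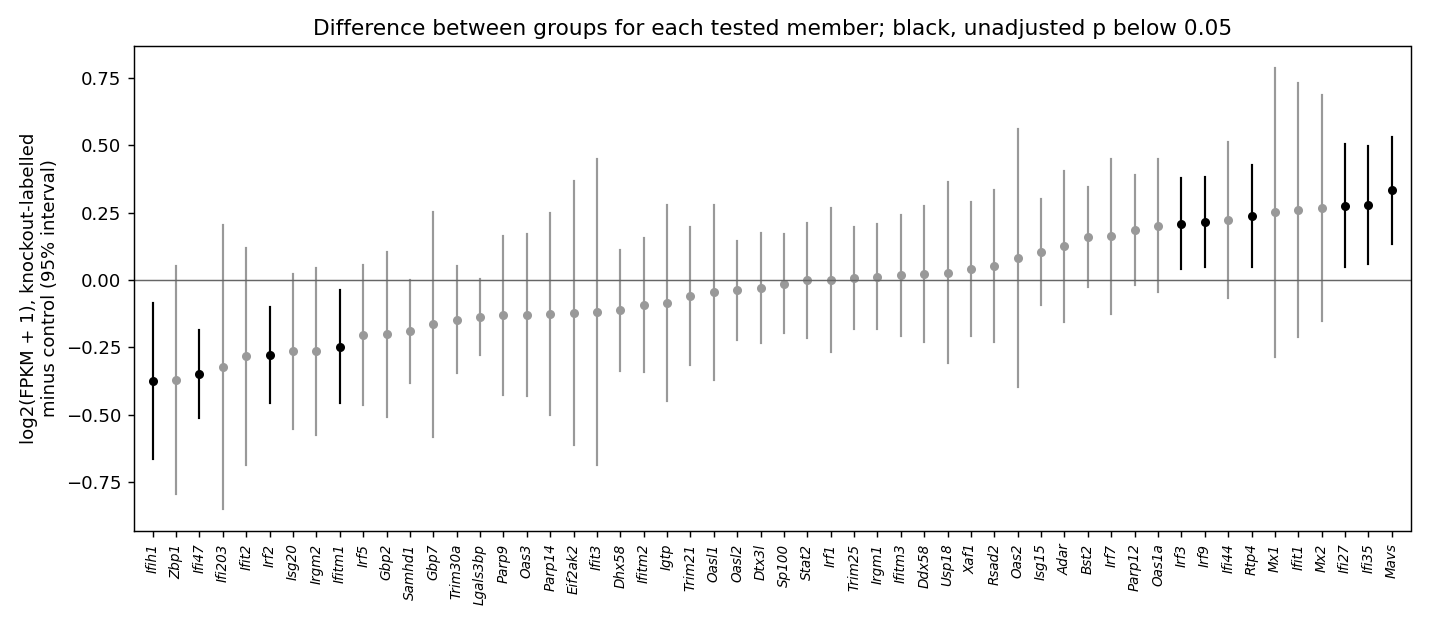
Fitted difference between the groups, knockout-labelled minus control, in log2(FPKM + 1) for the 54 tested members, with 95% intervals from limma; black marks the 10 members with an unadjusted p below 0.05. The points run from Ifih1 at -0.37 to Mavs at 0.33, and 25 lie above 0 and 29 below.

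Before the members are read one by one, 3 measured facts of the libraries belong beside them. Thbs1 itself was not lower in the libraries labelled knockout: it stood at 4.12, 13.8 and 2.33 FPKM in the controls and 10.8, 8.50 and 7.68 in the knockouts, a difference of 0.65 ± 0.43 (SE) with an adjusted p of 0.503 in limma and an exact permutation p of 0.5, where 3 against 3 can give no less than 0.1. Without control 2, the difference was 1.26 with an adjusted p of 0.0344 in limma. The level of the gene thus neither bears out nor refutes the labels. The deleted exons are not stated, so a value over the whole gene cannot check the knockout. The words "higher" and "lower" refer throughout to the libraries as labelled. The list of 14 heat shock and immediate early genes, which can respond to how cells are handled, moved with the groups. Of its 11 tested genes 5 were called higher and 0 lower, against 1.56% of all tested genes called. Hspa8, the constitutive Hsc70 chaperone, stood at 359, 321 and 352 FPKM in the controls and 667, 602 and 592 in the knockouts. The summed level of the list was 545.6 to 603.8 FPKM in the controls and 877.7 to 1014 in the knockouts. A difference in handling could not be told apart from the knockout label, and the part of the list in the results on the members was not tested.

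All 12 stem cell markers reached 1 FPKM in every library, and 1 was called. At an unadjusted p below 0.05 there were 5 of the 12, 2 higher (Procr and Fgd5) and 3 lower (Ly6a, Slamf1 and Hlf), and for 6 (50%) the groups did not overlap, against 22.8% of all tested genes. Procr, the sorting antigen EPCR, stood at 45.2, 43.6 and 47.4 FPKM in the controls and 67.0, 57.7 and 53.1 in the knockouts (adjusted p = 0.0857 in limma). Ly6a, which encodes the sorting antigen Sca-1 and is itself inducible by interferon, fell from 107, 119 and 119 FPKM in the controls to 89.2, 73.9 and 67.6 in the knockouts, by 0.58 ± 0.10 on the log2 scale (adjusted p = 0.0286 in limma); the call held in 9 of 16 alternative fits. Plasmacytoid dendritic cells, the strongest interferon producers, left little trace: of their 8 markers 6 stayed below 1 FPKM in all libraries, the defining marker Siglech reached at most 0.13, and the summed level of 54.3 to 66.3 FPKM in controls and 66.5 to 69.3 in knockouts was mainly that of Bst2, itself a member. Of 8 macrophage markers 4 were tested and 0 called, with the defining marker Adgre1 at 0.06 to 0.42 FPKM, C1qb at 4.19 to 5.64 and the list summing to 22.6 to 23.7 FPKM in controls and 15.0 to 19.3 in knockouts. Cd68, a lysosomal glycoprotein of macrophages, stood at 9.93, 13.2 and 12.0 FPKM in the controls and 6.0, 8.96 and 7.23 in the knockouts, every knockout library below every control (adjusted p = 0.0857). Of 8 T and NK cell markers 2 were tested and 1 called: Nkg7, a granule protein of cytotoxic cells, fell from 71.8, 98.9 and 95.1 FPKM to 61.0, 53.3 and 49.5 (adjusted p = 0.0332 in limma), a call that held in 9 of 16 alternative fits, while 5 of the 8 markers stayed below 1 FPKM in all libraries; the list summed to 74.5 to 101 FPKM in controls and 52.2 to 65.0 in knockouts. Of 7 monocyte, 8 granulocyte and 7 B cell markers, 1, 2 and 2 were tested and 0 called. The monocyte list summed to 3.68 to 4.88 FPKM in controls and 2.32 to 3.3 in knockouts. For granulocytes the sums were 3.77 to 3.91 and 2.86 to 4.29, and for B cells 29.26 to 31.13 and 24.25 to 27.76. For 1 tested monocyte and 1 tested B cell marker the knockouts lay lower without overlap, against 22.8% of all tested genes without overlap in either direction. Of 8 erythroid markers 5 were tested and Hbb-bt, a beta globin, fell (adjusted p = 0.00247 in limma), and of 7 megakaryocyte markers all were tested and 0 called, the smallest adjusted p being 0.0594 for Pf4. The megakaryocyte list summed to 395.1 to 499.3 FPKM in controls and 276.4 to 387.8 in knockouts, with 6 genes fitted lower and 1 higher. The erythroid list summed to 84.14 to 102 FPKM in controls and 47.39 to 115.5 in knockouts. The part of these cells in the results on the members was not tested. In bulk samples a marker does not show which cells hold its RNA, the sorted stem cells or others. Fewer cells of a type and less RNA per cell cannot be told apart either.

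The interferon regulatory factors hold both the activators and a brake of the response, and 3 of the 7 genes in this role, which also holds Stat2, had an unadjusted p below 0.05 (42.9%, against 16.4% of all tested genes). None of the 7 passed the adjusted threshold. Irf9, the DNA-binding part of the type I complex, stood at 29.0, 29.7 and 26.8 FPKM in the controls and 34.3, 33.9 and 31.6 in the knockouts. Irf3, which switches on interferon genes after a nucleic acid sensor fires, stood at 21.9, 20.2 and 22.0 FPKM in the controls and 25.1, 25.8 and 23.7 in the knockouts. For both genes all 3 knockout libraries lay above all 3 controls, by 0.22 ± 0.07 for Irf9 and 0.21 ± 0.08 for Irf3 on the log2(FPKM + 1) scale, with adjusted p-values of 0.188 and 0.208 in limma. Irf2, which occupies response elements and represses them, and whose loss in mice is known to make haematopoietic stem cells over-respond to type I interferon, stood at 23.3, 25.5 and 24.7 FPKM in the controls and 18.6, 20.3 and 21.2 in the knockouts. All 3 knockout libraries lay under the controls, with a difference of -0.28 ± 0.08 and an adjusted p of 0.130 in limma.

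Irf1, the interferon gamma-responsive activator whose promoter stretch above holds a GAS match, had the highest mean of the role. It stood at 37.9, 45.0 and 41.3 FPKM in the controls and 50.3, 37.8 and 37.0 in the knockouts, so that the groups overlapped and knockout 1 stood apart within its group. Stat2, the STAT protein particular to the type I complex, had means of 11.7 ± 0.59 (SD, n = 3) and 11.7 ± 1.105 FPKM. The feed-forward activator Irf7 had 7.83 ± 1.49 and 8.80 ± 0.48, and Irf5, an activator of inflammatory genes, 8.93 ± 0.78 and 7.64 ± 0.97. The groups overlapped for Irf1, Stat2, Irf7 and Irf5, with adjusted p-values of 0.425 or more in limma.

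Sensors of foreign nucleic acid are themselves interferon-stimulated. Mavs, the mitochondrial adaptor through which the RNA sensors signal, had the largest upward difference of the tested members in log2(FPKM + 1), 0.33 ± 0.09. It stood at 16.5, 16.0 and 14.1 FPKM in the controls and 20.9, 18.8 and 19.7 in the knockouts (adjusted p = 0.1101 in limma). Ifih1, which encodes the long double-stranded RNA sensor MDA5, had the largest downward difference on that scale, -0.37 ± 0.13. It stood at 5.81, 5.63 and 4.85 FPKM in the controls and 3.53, 3.76 and 4.62 in the knockouts (adjusted p = 0.188). As a ratio of mean FPKM, knockout over control, the low genes Mx1 (1.44) and Mx2 (1.37) stood above Mavs (1.28). For Mavs every knockout library lay above every control and for Ifih1 every one lay below, so an RNA sensor and the adaptor it uses stood in opposite directions.

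Both genes are on chromosome 2 with Thbs1 (chr2:118111876-118127133), Mavs (chr2:131234063-131248025) at 13.1 Mb from it and Ifih1 (chr2:62595798-62646255) at 55.5 Mb. The same chromosome carries Samhd1 (39.0 Mb away) and Zbp1 (55.1 Mb away). A stretch of chromosome from another strain can stay linked to a targeted gene, the labels give no strain, and its part in these differences was not tested. Ddx58, which encodes the RNA sensor RIG-I, had means of 12.0 ± 0.31 and 12.3 ± 2.02 FPKM, and Dhx58, the regulatory relative of both sensors, 10.97 ± 0.62 and 10.1 ± 1.07. Ifi203, a DNA-binding p200 protein, stood at 9.17, 6.08 and 7.72 FPKM in the controls and 3.55, 7.44 and 7.34 in the knockouts, with knockout 1 alone below every control. Zbp1, the sensor of left-handed nucleic acid, stood at 4.25 ± 0.17 and 3.16 ± 1.14 FPKM with the groups overlapping. Cgas, the cytosolic DNA sensor, ran from 6.70 to 8.12 FPKM and its adaptor Sting1 from 39.8 to 45.2 over the 6 libraries, with differences of -0.03 ± 0.11 and -0.05 ± 0.07.

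Of the 4 membrane and lipid effectors, 3 had groups that did not overlap, against 22.8% of all tested genes, and 0 were called. Rtp4, a receptor-transporting protein induced strongly by type I interferon, stood at 37.6, 37.3 and 38.2 FPKM in the controls and 40.0, 49.4 and 45.0 in the knockouts. All knockout libraries lay above the controls, with a difference of 0.24 ± 0.08 and an adjusted p of 0.199 in limma. Bst2, the tetherin that holds budding viruses at the cell surface, stood at 59.8, 52.2 and 63.5 FPKM in the controls and 67.4, 64.0 and 64.4 in the knockouts. The gap between control 3 and knockout 2 was small, and the adjusted p was 0.372. Lgals3bp, a secreted galectin-binding glycoprotein, stood at 125, 133 and 126 FPKM in the controls and 119, 116 and 114 in the knockouts, a difference of -0.14 ± 0.06 (adjusted p = 0.315 in limma) that became 0.06 when each library was rescaled to TPM. Rsad2, which encodes the antiviral enzyme viperin, stood at 6.96 ± 0.35 and 7.31 ± 1.21 FPKM.

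Ifi27 and Ifi35 stood in the same direction as Rtp4. Ifi27, a small mitochondrial membrane protein, stood at 60.6, 54.3 and 51.2 FPKM in the controls and 60.1, 77.4 and 65.0 in the knockouts. Control 1 and knockout 1 overlapped, and the difference of 0.28 ± 0.10 had an adjusted p of 0.217 in limma. Ifi35 stood at 22.8, 26.3 and 29.8 FPKM in the controls and 33.0, 32.3 and 30.7 in the knockouts, without overlap, a difference of 0.28 ± 0.10 (adjusted p = 0.192). Its exons share 290 bases with the opposite-strand gene Gm11626, at 0.758 FPKM, and the library kit does not mark strand. Sp100, Xaf1 and Ifi44 had differences between -0.01 and 0.22 with overlapping groups.

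**Figure D3:**
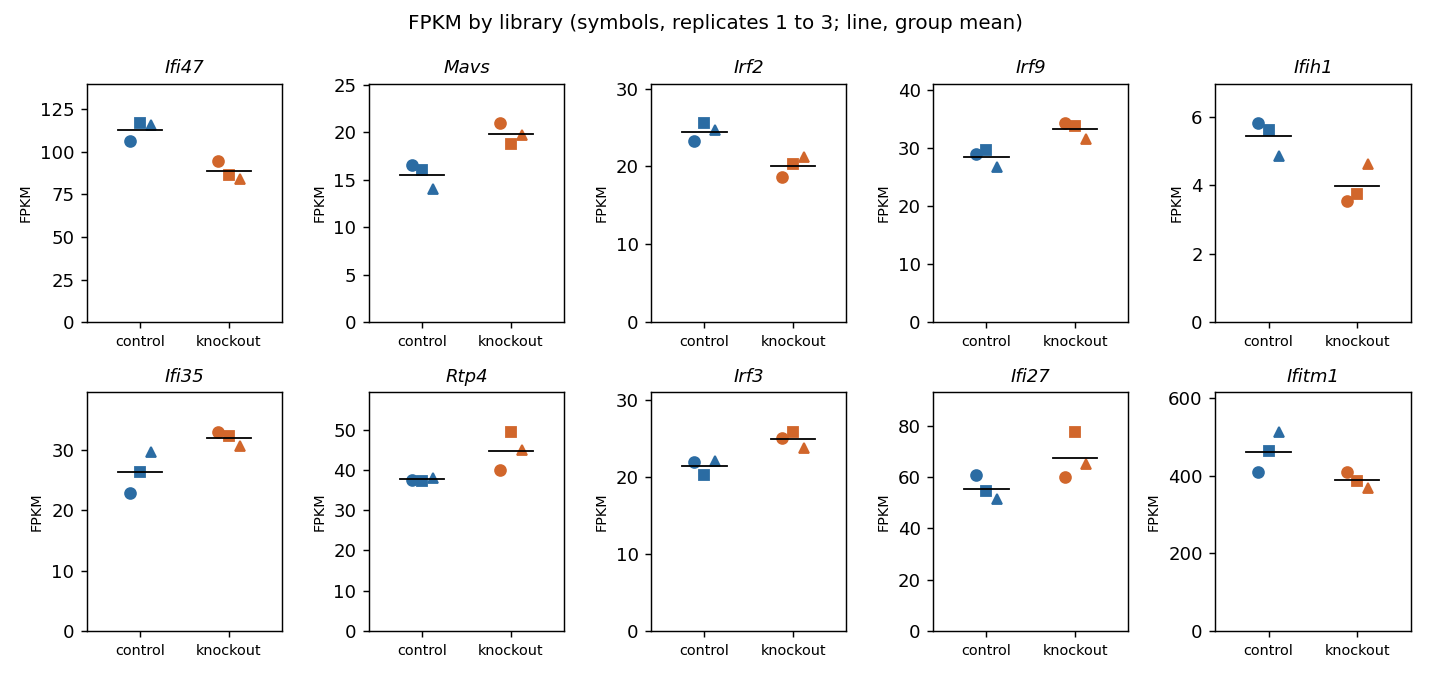
FPKM in each library (y axis from 0, control in blue, knockout-labelled in orange, circle, square and triangle for replicates 1 to 3, line at the group mean) for the 10 members with an unadjusted p below 0.05, ordered by p. The groups do not overlap in 8 panels, and in those of Ifi27 and Ifitm1 they do.

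The interferon-inducible GTPases hold the member nearest to the threshold. Ifi47 (chr11:49076587-49096974, plus strand), an immunity-related GTPase of the type that attacks the vacuoles of intracellular parasites, stood at 106, 117 and 116 FPKM in the controls and 94.6, 86.6 and 84.2 in the knockouts. All 3 knockout libraries lay under all 3 controls, from 5363 to 7226 reads a library. The ratio of the mean levels was 0.783, and the difference was -0.35 ± 0.07 (SE, 95% interval -0.51 to -0.19) with an unadjusted p of 0.000831 and an adjusted p of 0.0524 in limma. It passed the threshold in 4 of 16 alternative fits, with adjusted p-values of 0.0304 among genes of at least 5 FPKM on average, 0.0153 after quantile normalization, 0.0244 with array weights and 0.0156 after rescaling over protein-coding genes; over all 16 the adjusted p ran from 0.0153 to 0.220.

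The other 7 GTPases of the set overlapped between the groups. Igtp stood at 49.3, 63.6 and 47.8 FPKM in the controls and 65.5, 43.9 and 43.5 in the knockouts. Irgm1, a regulator of the family whose loss is known to impair haematopoietic stem cells, stood at 25.1, 28.0 and 26.7 FPKM in the controls and 29.5, 24.6 and 26.6 in the knockouts. Irgm2, its close relative, stood at 27.7, 34.1 and 23.8 FPKM in the controls and 27.3, 20.7 and 22.4 in the knockouts. Within each group the same library was the highest for all of them, control 2 and knockout 1. Igtp and Irgm2 share 162 bases of exon, so a part of their reads cannot be told apart. Gbp2, a guanylate-binding protein, stood at 27.1, 30.7 and 26.3 FPKM in the controls and 30.1, 19.7 and 23.9 in the knockouts, with the same 2 libraries on top. Gbp7 took another order, at 9.71, 7.17 and 6.75 FPKM in the controls and 4.94, 8.49 and 7.55 in the knockouts. Mx2 stood at 1.64, 1.07 and 1.13 FPKM in the controls and 1.47, 2.30 and 1.49 in the knockouts, a difference of 0.27 with an adjusted p of 0.524 in limma.

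This order was looked at further after these values had been seen. The 2 GTPase families, the immunity-related GTPases and the guanylate-binding proteins, have 17 genes in the members and in the list of further interferon-stimulated genes. Of the 17, 13 had their highest control value in control 2 and 12 their highest knockout value in knockout 1, against 30.1% and 37.0% of all tested genes. Both held at once for 12 genes, Ifi47, Igtp, Irgm1, Irgm2, Gbp2, Gbp4, Gbp6, Gbp9, Gbp10, Gbp11, Tgtp1 and Tgtp2. The order of Igtp, Irgm1, Irgm2 and Gbp2 prompted the count, and Gbp10 and Gbp11 were too low to be tested. Of the other 11 tested genes of these families, 6 had both, against 12.2% of all tested genes. The 11 are not independent of each other or of the genes that prompted the count, so their count is no separate support. The spans of Gbp4, Gbp8 and Gbp9 overlap on chromosome 5, and read sharing among relatives outside the members was not examined. On average the 17 stood 0.22 above their group mean on the log2(FPKM + 1) scale in control 2 and 0.20 above it in knockout 1. Irf1 and Thbs1 were among the 1532 of 12555 tested genes that were highest in those 2 libraries of their groups.

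The IFIT genes took another order. These encode proteins that bind viral RNA through tetratricopeptide repeats. Of the 6 listed genes of this family 5 had their lowest knockout value in knockout 1, against 35.4% of all tested genes. On average the 6 stood 0.29 below the group mean there. Of the 5, Ifit3b and Ifit1bl1 were below 1 FPKM in knockout 1, at 0.32 and 0.77. Ifit2 stood at 12.4, 12.4 and 9.53 FPKM in the controls and 6.51, 10.99 and 10.6 in the knockouts. Ifit1 stood at 7.91, 3.93 and 6.80 FPKM in the controls and 6.01, 8.03 and 8.30 in the knockouts, and Ifit3 at 4.42, 2.48 and 5.48 in the controls and 2.37, 4.69 and 3.98 in the knockouts. Control 2 was thus the lowest control for Ifit1 and Ifit3 while it was the highest for 13 of the 17 GTPases of the 2 families. The transcripts of Ifit3 and Ifit3b are 97.8% identical over 1700 bases, so how reads were shared between them is uncertain. The group differences of Ifit1, Ifit2 and Ifit3 lay between -0.28 and 0.26, with adjusted p-values of 0.476 or more in limma. With 3 libraries a group, these orders describe libraries and not conditions.

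**Figure D4:**
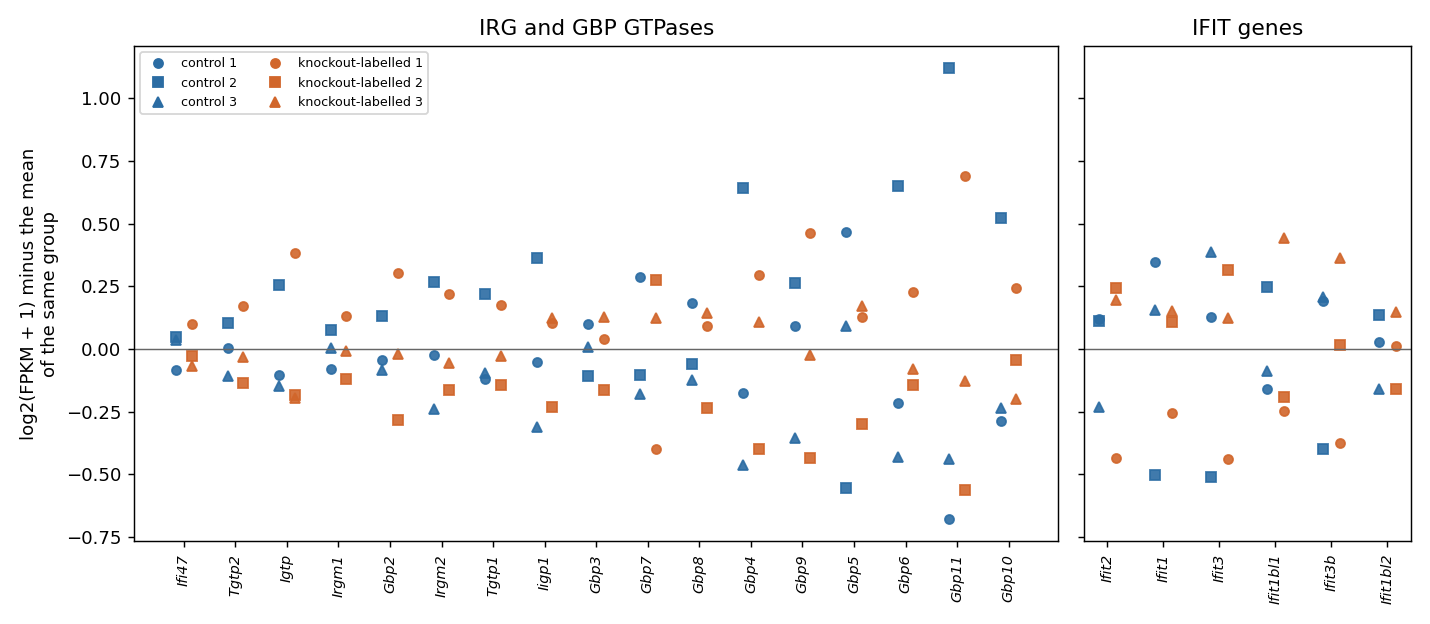
Deviation of each library from the mean of its own group in log2(FPKM + 1), for the 17 immunity-related and guanylate-binding GTPases (left, ordered by mean level) and the 6 IFIT genes (right); colour gives the group and shape the replicate number. Control 2 (blue squares) and knockout 1 (orange circles) lie above 0 for most GTPases, and knockout 1 lies below 0 for 5 of the 6 IFIT genes.

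The IFITM genes were the most abundant, and 0 of the 3 were called. Ifitm1 (chr7:140967221-140969825, plus strand) stood at 409, 465 and 512 FPKM in the controls and 409, 386 and 368 in the knockouts. Control 1 and knockout 1 held almost the same value, so the groups met, and the difference of -0.25 ± 0.09 had an adjusted p of 0.226 in limma. Ifitm3 stood at 803, 803 and 976 FPKM in the controls and 874, 920 and 811 in the knockouts, a difference of 0.02 ± 0.10. Its sign changed with the library left out. The level of Ifitm3 was 1.73 to 1.96 times that of Ifitm1 in the controls and 2.13 to 2.38 times in the knockouts. Against Ifitm2 it was 2.45 to 2.80 times over all 6 libraries. Whether the IFITM genes differ from each other in their change was not tested. Pseudogene-like copies share sequence with Ifitm1 and Ifitm2, so their levels are uncertain to that extent; Gm7676, 97.5% identical to Ifitm1 over 319 bases, had a mean of 8.45 FPKM.

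Of the 4 genes of the ISG15 system and the antiviral nucleases, 1 had groups without overlap, against 22.8% of all tested genes. Samhd1, which removes the deoxynucleotides that viruses need, stood at 9.71, 9.55 and 9.68 FPKM in the controls and 8.22, 8.24 and 8.52 in the knockouts. The libraries within each group differed by little, every knockout lay under every control, and the difference of -0.19 ± 0.09 had an adjusted p of 0.309 in limma. Isg20, an exonuclease of RNA, stood at 19.5, 23.1 and 23.8 FPKM in the controls and 22.2, 17.3 and 15.7 in the knockouts, overlapping. Isg15, the ubiquitin-like protein that is joined to other proteins during the response, had means of 12.0 ± 0.35 and 13.02 ± 0.98 FPKM, and Usp18, which removes it and also dampens the type I receptor, 9.49 ± 2.45 and 9.52 ± 0.61.

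The groups overlapped for the 5 genes of the 2-5A synthetase family and for Adar and Eif2ak2, whose enzymes act on double-stranded RNA. Oas1a, a synthetase of the 2-5A messenger that activates RNase L, stood at 23.3, 21.5 and 20.1 FPKM in the controls and 21.2, 28.3 and 26.1 in the knockouts, with an adjusted p of 0.405 in limma. Oas1g, 97.6% identical to it over 1861 bases, had a mean of 3.80 FPKM, and reads may have been split between the pair. Oasl2 had means of 20.0 ± 1.36 and 19.5 ± 0.96 FPKM, and Oas2, Oas3 and Oasl1 ranged from 1.89 to 5.52 FPKM. The level of Oas1a was 5.91 to 15.0 times that of Oas2, which varied between 1.89 FPKM in knockout 2 and 4.41 in knockout 3. Adar, which edits adenosine in such RNA and so keeps the sensors quiet, stood at 10.1, 9.44 and 7.23 FPKM in the controls and 9.09, 10.3 and 9.83 in the knockouts. Eif2ak2, which encodes the translation-blocking kinase PKR, ranged from 3.73 to 7.96 FPKM with its lowest value in knockout 1.

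The 7 genes of ubiquitin and ADP-ribose transfer had differences from -0.15 to 0.19, all with overlapping groups. Dtx3l, a ubiquitin ligase that pairs with Parp9, was the highest of them at 22.1, 21.2 and 18.5 FPKM in the controls and 18.7, 20.7 and 20.98 in the knockouts. The genes Dtx3l and Parp9 share 458 bases of exon on opposite strands. Parp12, an ADP-ribosyltransferase with a zinc finger that binds RNA, had the largest difference of the role at 0.19, with 19.4, 20.0 and 17.1 FPKM in the controls and 22.1, 19.7 and 22.9 in the knockouts (adjusted p = 0.350 in limma). The ubiquitin ligases Trim21, Trim25 and Trim30a lay between 15.2 and 21.2 FPKM, Parp9 between 11.1 and 16.7, and Parp14 between 2.91 and 5.03. Trim30a had the lowest difference, -0.15, with means of 19.4 ± 1.85 and 17.4 ± 0.59 FPKM.

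The rest of the pathway was read from 5 lists of other genes, of which 88 of 133 could be tested and 1 was called, against 1.56% of all genes, with 13 at an unadjusted p below 0.05 (14.8%, against 16.4%). No interferon ligand could be tested. All 21 listed ligand genes stayed below 1 FPKM in every library, 10 were at 0 in all 6, and the highest single value was 0.46. The receptors and their kinases were present: Ifnar1 stood at 16.7 to 19.6 FPKM over the 6 libraries, Ifnar2 at 21.5 to 25.3, Ifngr1 at 51.8 to 63.7 and Jak1 at 56.7 to 72.1. Ifnlr1, the receptor chain of lambda interferons, stood at 0.08 FPKM or less. Of the 11 genes of receptors and signal transducers 10 were tested, 0 were called and 0 had an unadjusted p below 0.05; the smallest adjusted p-values were 0.356 for Jak2, 0.480 for Ifnar2 and 0.506 for Ifngr1.

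Of 13 brakes on interferon signalling 0 were called and 3 had an unadjusted p below 0.05 (23.1%, against 16.4% of all tested genes). Trim24, a corepressor, stood at 3.57, 3.51 and 3.82 FPKM in the controls and 1.85, 2.33 and 2.27 in the knockouts (adjusted p = 0.0800 in limma). Socs1, the feedback inhibitor of JAK kinases, stood at 12.5, 13.3 and 13.1 FPKM in the controls and 16.4, 16.0 and 16.0 in the knockouts (adjusted p = 0.104). Irf2bp2, a corepressor named for binding Irf2, stood at 31.5, 22.7 and 25.8 FPKM in the controls and 21.3, 18.2 and 18.1 in the knockouts (adjusted p = 0.1102). The groups did not overlap in any of these, with Socs1 higher and the corepressors lower in the knockout libraries; the share of the list without overlap, 23.1%, was near the 22.8% of all tested genes. Of the 19 Toll-like receptors, adaptors and kinases 14 were tested and 0 called, with the smallest adjusted p-values 0.179 for Rnaseh2a, 0.354 for Pycard and 0.407 for Tank. The endosomal receptors Tlr3, Tlr7, Tlr8 and Tlr9 stayed below 1 FPKM in all libraries.

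Of 69 further interferon-stimulated genes 51 were tested, and 1 was called. Slfn2, a Schlafen protein known to hold immune cells in quiescence, rose from 37.7, 38.1 and 37.8 FPKM in the controls to 47.1, 49.9 and 55.3 in the knockouts. All 3 knockout libraries lay above all controls, with a difference of 0.41 ± 0.08 (SE) and an adjusted p of 0.0341 in limma, which held in 7 of 16 alternative fits. At an unadjusted p below 0.05 there were 9 genes of this list (17.6%, near the 16.4% of all tested genes), 2 higher and 7 lower. Phf11b stood at 14.7, 15.7 and 11.8 FPKM in the controls and 10.3, 7.76 and 8.92 in the knockouts (adjusted p = 0.0635), and Epsti1 at 28.1, 29.6 and 33.8 in the controls and 23.0, 24.5 and 24.1 in the knockouts (adjusted p = 0.0941). Both lay lower in every knockout library than in any control, and their adjusted p-values missed the threshold.

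Scaling changed the members' counts more than any other setting. Summed over the tested genes, FPKM came to between 369800 and 405200 in the controls and between 326700 and 336900 in the knockouts. When each library was rescaled to TPM (transcripts per 1000000, every library summing to the same total), the median difference of all genes moved from 0.01 to 0.19 and that of the members from -0.02 to 0.18, and 94.0% of calls were higher in place of 36.2% (2016 higher and 128 lower). Under that scaling 8 of 54 tested members were called higher, Ifitm3, Irf9, Mavs, Ifi27, Rtp4, Irf3, Ifi35 and Bst2, and 0 lower. The 2016 higher calls of the whole table came from 15277 genes tested under it. Median-of-ratios scaling gave 0 called members and rescaling over protein-coding genes gave 1. Relative to the shift of all genes the members' median was again near 0. Ifi47 came to -0.15 in TPM (adjusted p = 0.157 in limma), against -0.35 without rescaling. With 3 libraries a group the intervals, which are not adjusted for the number of genes, remained wide. Without rescaling the 95% interval of Ifi47, the member with the smallest p, ran from -0.51 to -0.19, and that of Igtp from -0.45 to 0.28.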

How the data were processed

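Transcript levels were measured in 6 libraries, 3 control and 3 Thbs1 knockout, made per the labels' protocols from 2 ng of total RNA with the SMART-Seq v4 kit, which does not mark strand. FastQC 0.11.5, STAR and edgeR and the builds GRCm38 and mm10 appear in the submitters' processing notes; what each tool did, which annotation was used and how reads were counted is not given in the sources used here. Deposited values are FPKM, made by the authors, for 52183 genes. All identifiers matched GENCODE release M21, which gave positions, overlaps and exon lengths. The steps of the low FPKM values gave depths of 22730000 to 30890000 reads; 99.4 to 99.7% of values came out whole within 0.1 read.

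From these values, log2(FPKM + 1) of genes with at least 1 FPKM in 3 libraries was fitted with limma 3.58.1 (R 4.3.3), eBayes with trend, and checked on simulated data. Symbols of near-identical copies came from BLAST 2.17.0 at 95% identity or more. Values in every library are given for Thbs1, for members with an unadjusted p below 0.05 and for the highest member of each role; other members shown in full were chosen after their values were seen. Of each pathway list the called genes and the 3 smallest p are named. Alternatives changed the pseudocount, filter, scaling, variance model, weights, replicate block and libraries. Rescaling over protein-coding genes was chosen after seeing the data. The members, roles and lists were chosen with earlier results of these data known. RefSeq windows matched 44 members.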

Additional observations from a re-analysis of the deposited data

How the results depend on the processing

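The count of called members was 0 and remained 0 without each library in turn, with the replicate block, with a pseudocount of 0.1, without a filter, with median-of-ratios scaling and without the variance trend. It was 1 (Ifi47, lower) among genes of at least 5 FPKM on average, after quantile normalization, with array weights and after rescaling over protein-coding genes. In TPM it was 8, all higher, where 2016 of all 15277 tested genes were called higher. The count of called genes over the 5 pathway lists was 1 and became 0 without a filter, without the trend and with the replicate block, 2 at 5 FPKM, with median-of-ratios scaling and with array weights, 3 after protein-coding rescaling and 10 in TPM; leaving out 1 library gave 0 to 1. Members present in both groups numbered 54 at 0.5 FPKM, 53 at 1 and 41 at 5. For Thbs1, leaving out 1 library gave differences from 0.19 to 1.26.

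Differences near 0 changed sign. In TPM Lgals3bp came to 0.064 and Dtx3l to 0.170. Ifitm3 came to -0.00400 with median-of-ratios scaling and -0.00294 with protein-coding rescaling, and ran from -0.0298 to 0.111 when 1 library was left out. Irf1 came to -0.0204 and -0.0199 under those scalings, -0.0441 after quantile normalization and -0.0752 with array weights, and ran from -0.139 to 0.0772 with 1 library left out. Leaving out 1 library gave -0.101 to 0.0216 for Dtx3l and -0.00516 to 0.213 for Adar. The cause was not tested.

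Same-numbered libraries shared little deviation from their group means, with correlations of -0.11, 0.04 and -0.08. Such values cannot tell whether these libraries were prepared together. With the replicate block, 27 genes were called higher and 54 lower in the whole table, against 71 and 125, and 0 members. Leaving out 1 library gave 16 to 38 higher and 43 to 77 lower. The inferred depths limit low genes: 3 reads in 1 kb of exon are worth 0.097 to 0.132 FPKM, so values of Ifi204 and of the ligands near these carry no fold.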
